A study of Mus musculus with 12 samples.

Results

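The genes described here form the MYC, MAX and MXD network, chosen by symbol from the deposited gene table. They are the MYC family members Myc, Mycn and Mycl, their partner Max, the other MAX partners Mxi1, Mxd3, Mxd4, Mnt and Mga, and Mlxipl, which pairs with the MAX-like factor Mlx. All 10 had a row among the 22738 in the table, and all 10 passed the filter on low counts, which left 17426 genes. Expression was measured by RNA-seq in dissected lung tumours of a mouse model of small cell lung cancer, an aggressive neuroendocrine tumour. The mice carried the alleles Rb1 fl/fl, p53 fl/fl and Myc lsl/lsl T58A, and tumours were induced by instilling Ad5CGRP-Cre, an adenovirus that expresses Cre from the promoter of the neuroendocrine gene CGRP, into the airway. The combination group received entinostat, which blocks class I histone deacetylases, together with an antibody to PD-1, a receptor that restrains T cells. The entinostat group received 15 mg/kg daily for 28 days, the anti-PD-1 group received 10 mg/kg for 4 weeks, and the control group received neither agent. Induction at 8 weeks of age is stated for an initial cohort, and the labels give no age at sampling. All 4 groups shared the genotype and the virus, so every library, the control ones included, came from a tumour in which Cre switches on the mutant Myc allele. Gene-level counts do not separate that allele from the endogenous Myc gene. The control libraries are named as control alone, and the labels do not tell which of the oral vehicle and the isotype antibody those mice had.

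In this network, MAX is a shared partner with which each of the other proteins except MLXIPL and MLX can bind DNA. MYC, MYCN and MYCL with MAX activate transcription at E-boxes, short DNA motifs with the core CACGTG, and MXD proteins, MXI1 and MNT with MAX recruit histone deacetylases through SIN3 to repress the same sites. MGA with MAX belongs to a Polycomb repressor complex, and MLXIPL, also named ChREBP, pairs with MLX to switch on glycolytic and lipogenic genes when glucose is high. In small cell lung cancer, amplification of a MYC family gene is a recurrent event, and high MYC and high MYCL mark different tumour states.

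Each group had 3 libraries, with total counts between 31295987 and 54001886, and all carried the same batch label. Levels are given in CPM, counts scaled to library depth with the TMM factors of edgeR. The deposited column names carry a different number for each library, whose meaning the labels do not give. No label states that each library came from its own mouse. The p-values thus reflect the spread among these libraries, which may be technical in part. Each of 11 neuroendocrine markers had more than 5 counts in every library, a low bar that does not by itself show the cell type. Their summed levels were 472 to 970 CPM in the combination group, 612 to 1087 CPM in the entinostat group, 811 to 1328 CPM in the anti-PD-1 group and 1136 to 2062 CPM in the control group. Normal lung was present as well, and unevenly. Summed alveolar markers ranged from 97.9 to 652 CPM in the combination group, from 183 to 707 CPM in the entinostat group, from 92.1 to 521 CPM in the anti-PD-1 group and from 65.8 to 488 CPM in the control group. Control library 1 had the lowest sum, with 5 or fewer counts of Sftpc, Sftpb, Sftpa1, Sftpd, Slc34a2 and Aqp5. The next lowest sums were 92.1 CPM in anti-PD-1 library 1, 97.9 CPM in combination library 3 and 107 CPM in control library 3. In bulk tissue, fewer cells of a type and less RNA per cell cannot be told apart.

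Mlxipl is shown first by its promoters, since it had the largest fold change of the 10 genes and since E-boxes are the sites that this network binds. RefSeq lists 2 starts for it on GRCm38.p6, 17001 bases apart on the plus strand of chromosome 5. In mice the upstream and the downstream start are known for different ChREBP isoforms, which gene-level counts do not separate. The windows run from 250 bases before to 50 bases after each start, with any E-box CACGTG in capitals.
Mlxipl, upstream start, chr5:135089640-135089939, plus strand: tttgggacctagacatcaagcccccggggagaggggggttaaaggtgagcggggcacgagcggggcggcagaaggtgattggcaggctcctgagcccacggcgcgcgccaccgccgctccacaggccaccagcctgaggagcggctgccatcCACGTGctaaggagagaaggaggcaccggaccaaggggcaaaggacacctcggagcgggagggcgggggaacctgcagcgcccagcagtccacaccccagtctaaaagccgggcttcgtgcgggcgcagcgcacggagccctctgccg
Mlxipl, downstream start, chr5:135106641-135106940, plus strand: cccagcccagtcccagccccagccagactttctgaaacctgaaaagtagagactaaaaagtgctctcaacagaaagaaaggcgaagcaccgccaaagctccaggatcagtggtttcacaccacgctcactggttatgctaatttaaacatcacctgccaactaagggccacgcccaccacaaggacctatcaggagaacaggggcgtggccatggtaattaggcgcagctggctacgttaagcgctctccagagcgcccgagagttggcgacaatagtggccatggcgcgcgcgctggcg
The upstream window holds a single E-box, whose first base lies 98 bases before the start, and the downstream window holds none. The motif reads the same on both strands. It occurred in 7.15% of all 32851 promoter windows of this length in the table.

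Promoter windows were matched for 9 of the 10 genes by symbol, and Myc was not matched. An E-box was found in a window of 4 of these 9, against 8.09% of the 27025 genes with a window. The 4 were Mlxipl, Max, Mnt and Mxd4, and among the partners of MLXIPL the window of Mlx also held it. The sites of the other genes are shown with flanking bases on the strand of the gene to set them beside the site of Mlxipl.
Max, chr12:76962234-76962263, minus strand: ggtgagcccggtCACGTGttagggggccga
Mnt, chr11:74830789-74830818, plus strand: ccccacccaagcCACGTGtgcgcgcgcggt
Mxd4, chr5:34187912-34187941, minus strand: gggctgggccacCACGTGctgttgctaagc
Mlx, chr11:101087238-101087267, plus strand: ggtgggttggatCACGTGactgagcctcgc
The first base of the core lay 3 bases before the start of Max, so that the core spans this start. It lay 40 bases before the start of Mlx, 123 before that of Mnt and 219 before that of Mxd4. A match describes the letters of the reference and not binding in these tumours.

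The main question of the design, what entinostat does with and without the antibody, was addressed by the main effect of entinostat, the mean of its effects in the 2 settings, fitted over all 12 libraries. Of the 10 network genes, Myc and Mlxipl rose and none fell, against 10.6% of all 17426 genes called in either direction, 3.87% higher and 6.74% lower. These shares are 674 genes higher and 1175 lower, and with upper quartile factors in place of TMM they were 1046 higher and 632 lower, with Myc and Mlxipl called under both. The other 8 genes did not pass the test. The median log2 fold change of the 10 was 0.06, beside 0.02 over all genes tested.

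**Figure D1:**
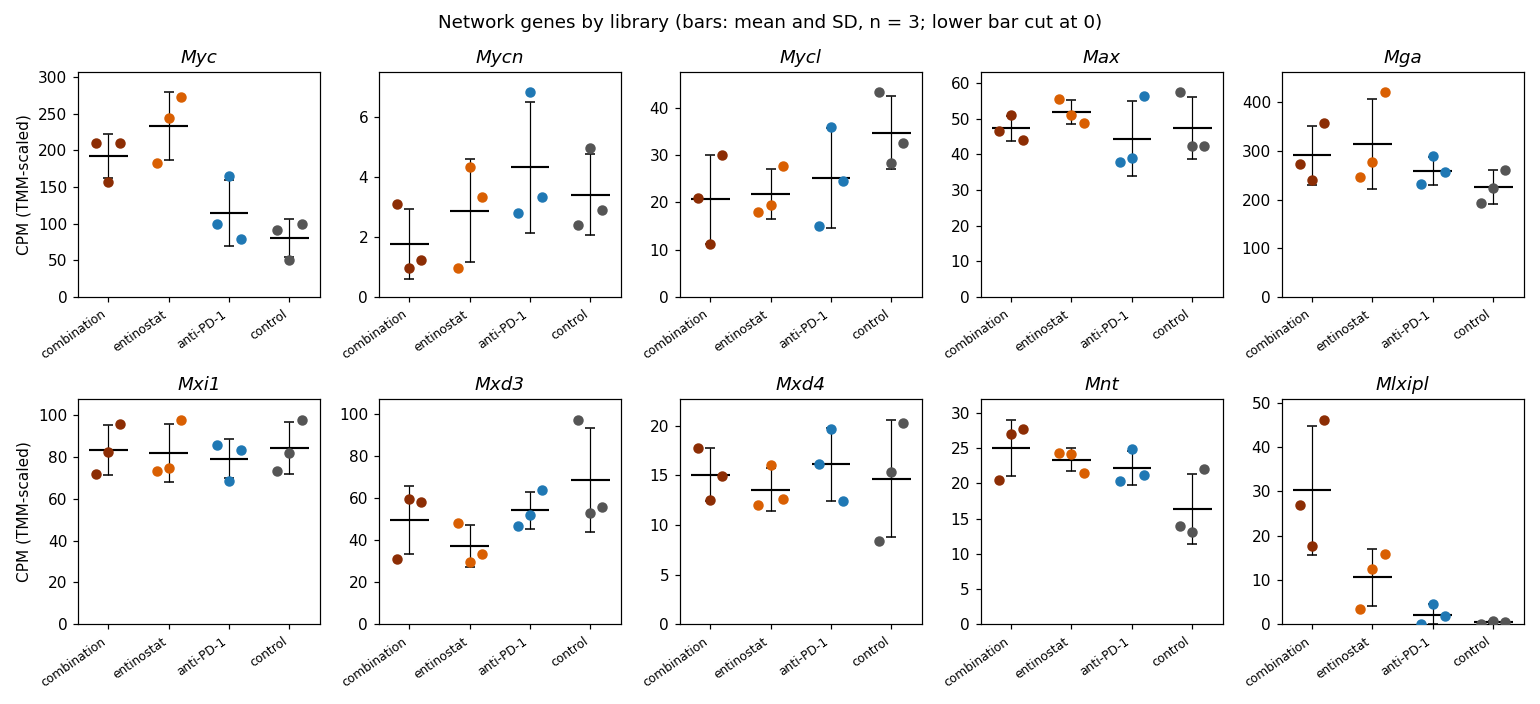
Level of each network gene in CPM, by group from combination to control, with a point per library, a horizontal line at the mean and a bar of 1 SD (n = 3). Myc and Mlxipl sit higher in the combination and entinostat groups than in the control group without overlap, while Max and Mxi1 stay between 37.7 and 97.8 CPM in all libraries with overlapping groups.

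Myc, the oncogenic transcription factor that the model switches on, had 209, 157 and 211 CPM in the combination libraries. It had 183, 244 and 273 CPM with entinostat, 99.8, 165 and 79.1 CPM with anti-PD-1, and 91.8, 50.6 and 99.7 CPM in control. Every combination and entinostat library lay above every control library, while anti-PD-1 library 2 reached the range of the combination group. With entinostat, over both settings, the 6 libraries averaged 213 ± 41.4 CPM, against 97.7 ± 37.8 CPM in the 6 libraries without it (SD), with 1 library of each arm inside the range of the other. The edgeR log2 fold change was 1.14 (SE 0.22, adjusted p = 0.014).

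Split by comparison, Myc rose with the combination against control by 1.25 on the log2 scale (SE 0.32, edgeR adjusted p = 0.0299), and with entinostat alone against control by 1.53 (SE 0.32, edgeR adjusted p = 0.0248). These 2 comparisons share the control libraries. Both calls were lost without control library 1, which had the lowest sum of alveolar markers, and also without control library 2. Without control library 1 the log2 fold change was 1.35 for the combination (edgeR adjusted p = 0.0606) and 1.63 for entinostat (edgeR adjusted p = 0.0558). Without control library 2 it was 1.005 for the combination (edgeR adjusted p = 0.065) and 1.28 for entinostat (edgeR adjusted p = 0.0533). Leaving out some of the treated libraries also lost these calls, as given below. The addition of entinostat to the antibody gave a log2 fold change of 0.75 for the combination against anti-PD-1, with a 95% interval of 0.06 to 1.43 before adjustment, and did not pass (edgeR adjusted p = 0.369). The addition of the antibody to entinostat gave −0.28, with an interval of −0.96 to 0.40 (edgeR adjusted p = 1). The interaction of the 2 agents was −0.78, with an interval of −1.75 to 0.18 (edgeR adjusted p = 0.871).

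Mlxipl, the glucose-responsive MLX partner, changed most. It had 26.8, 17.7 and 46.2 CPM in the combination libraries, from 939, 704 and 1840 counts. With entinostat it had 3.47, 12.5 and 15.8 CPM, with anti-PD-1 0, 4.66 and 1.78 CPM, and in control 0.12, 0.75 and 0.43 CPM. The control values rest on 6, 36 and 17 counts, and the count of 0 in anti-PD-1 library 1 allows up to 0.1 CPM at the 3 counts that a count of 0 allows, which covers counting error alone. The combination libraries lay above all 9 others, the entinostat libraries lay above all control libraries, and anti-PD-1 library 2 lay above entinostat library 1.

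The entinostat main effect on Mlxipl was 4.21 on the log2 scale (SE 0.86, edgeR adjusted p = 0.0159), with means of 20.4 ± 14.7 CPM in the 6 libraries with entinostat and 1.29 ± 1.77 CPM in the 6 without (SD). Against control, the combination gave 6.13 (SE 1.34, edgeR adjusted p = 0.0186), a 69.9-fold difference. Without control library 1 this was 5.67 (edgeR adjusted p = 0.052). Entinostat alone against control gave 4.61, or 24.4-fold, with a 95% interval of 1.87 to 7.35, and did not pass the adjusted threshold (edgeR adjusted p = 0.0565). The combination was 14.1-fold above anti-PD-1 and 2.86-fold above entinostat, without overlap of libraries in either comparison, and neither passed (edgeR adjusted p = 0.264 and 1). Libraries of a gene lay higher without overlap in 9.92% of all genes for the first of these comparisons and in 3.32% for the other. The difference from anti-PD-1 was 3.82 on the log2 scale, 5.06 without anti-PD-1 library 2 and 3.225 without anti-PD-1 library 1. Without anti-PD-1 library 2 the main effect was 4.83, and without control library 2 the log2 fold changes were 6.80 for the combination and 5.28 for entinostat against control. The interaction was −0.79, with an interval of −4.14 to 2.56, and 0.47 without anti-PD-1 library 2, so that at this spread a different effect of entinostat with and without the antibody was not detectable.

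**Figure D2:**
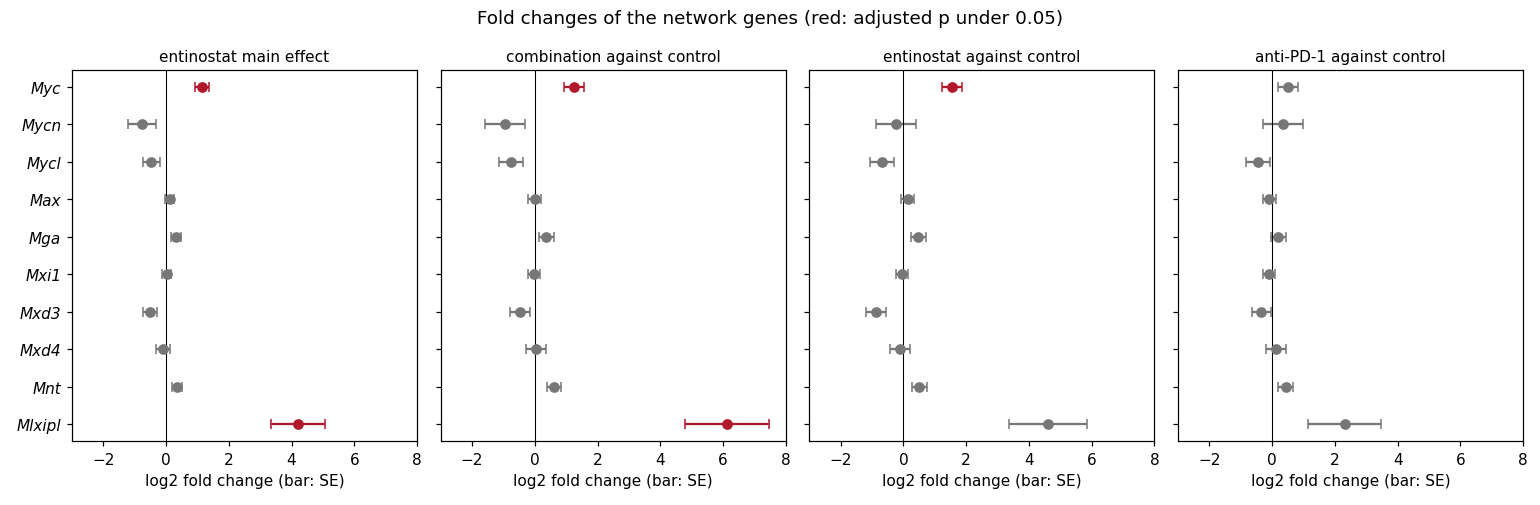
Log2 fold change with its SE for the 10 network genes in the entinostat main effect and in each treatment against control, with genes past an adjusted p of 0.05 in red. Myc stands at 1.14, 1.25 and 1.53 in the first panels, Mlxipl at 4.21, 6.13 and 4.61, and no gene is red for anti-PD-1 against control.

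Markers of other cell types also varied between libraries, and their part in the difference of Mlxipl was not tested. Combination library 3 had the highest Mlxipl level, 46.2 CPM, at 97.9 CPM of summed alveolar markers. Control library 2 had 0.75 CPM of Mlxipl at 488 CPM of alveolar markers, and with the alveolar score as a covariate the entinostat main effect on Mlxipl was 4.08 (edgeR adjusted p = 0.0421) and that on Myc 1.27 (edgeR adjusted p = 0.0437). Summed fibroblast markers were 805, 1490 and 560 CPM in the combination libraries, 836, 665 and 735 CPM with entinostat, 879, 552 and 213 CPM with anti-PD-1 and 312, 311 and 402 CPM in control, so the fibroblast markers separated the entinostat arms from control as Mlxipl did. Of 8 fibroblast markers 2 rose with the combination against control, beside 3.88% of all genes, and of 11 neuroendocrine markers 2 fell, beside 7.78%. In the entinostat main effect 1 of 8 fibroblast markers rose and 4 of 11 neuroendocrine markers fell, while 0 of 14 alveolar and 0 of 10 macrophage markers passed (edgeR), beside 3.87% higher and 6.74% lower of all genes. Among tissues known for high Mlxipl, liver was checked by Alb, which had 4 or fewer counts in every library. Another liver marker, Apoa1, reached 18 counts in anti-PD-1 library 3. Fat was checked by Adipoq, which had 404 counts in combination library 2 and 2 or fewer in combination libraries 1 and 3. The fat markers Cidec, Pck1 and Plin1 had 211, 157 and 41 counts in combination library 2. The part of either tissue in the level of Mlxipl was not tested.

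**Figure D3:**
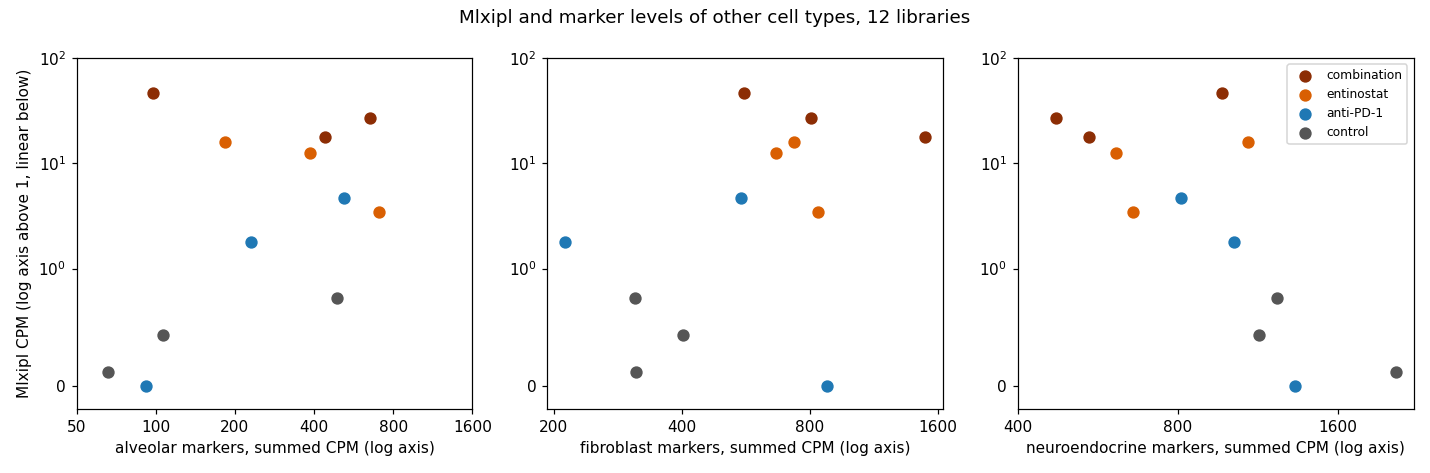
Mlxipl CPM in each of the 12 libraries against the summed CPM of alveolar, fibroblast and neuroendocrine markers, with groups by colour, a log x axis, and a y axis that is linear below 1. The 3 combination libraries lie at 17.7 to 46.2 CPM of Mlxipl over an alveolar range of 97.9 to 652 CPM, and the control libraries lie at 0.12 to 0.75 CPM over a range of 65.8 to 488 CPM.

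The other MYC family members did not pass the test in either direction. Mycl, the family member of classic neuroendocrine small cell lung cancer, had 20.9, 11.1 and 29.9 CPM in the combination libraries, 18.03, 19.4 and 27.8 CPM with entinostat, 15.1, 36.03 and 24.4 CPM with anti-PD-1, and 43.3, 28.3 and 32.6 CPM in control. The entinostat libraries lay below the control libraries without overlap, by a narrow gap, and the other groups overlapped. The log2 fold change was −0.75 for the combination and −0.68 for entinostat against control, and neither passed (edgeR adjusted p = 0.212 and 0.303). Mycn, the neuronal family member, was low throughout, between 0.96 and 6.81 CPM. It averaged 1.76 ± 1.16 CPM with the combination, 2.88 ± 1.73 CPM with entinostat, 4.31 ± 2.18 CPM with anti-PD-1 and 3.41 ± 1.36 CPM in control (SD, n = 3 each), with overlapping libraries in each comparison. Its entinostat main effect was −0.77, with a 95% interval of −1.77 to 0.22.

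The balance of the family differed between libraries. Myc took 89.7%, 92.9% and 87.1% of the counts of Myc, Mycl and Mycn in the combination libraries and 90.6%, 91.1% and 89.8% with entinostat. It took 84.8%, 79.4% and 74.0% with anti-PD-1 and 66.8%, 60.4% and 73.8% in control. All 6 libraries with entinostat lay above all 6 without it. The ratio of Myc to Mycl counts, a measure chosen after these values were seen, had a lowest, median and highest value of 7.05, 10.1 and 14.1 with entinostat, against 1.79, 3.15 and 6.62 without it. The geometric means of these ratios differed 3.21-fold (log2 difference 1.68). No test is given, since the measure was chosen for this separation. Within the libraries that received no antibody, the 3 entinostat ratios lay above the 3 control ratios, and within the antibody-treated libraries the 3 combination ratios lay above the 3 anti-PD-1 ratios. Anti-PD-1 ratios of 3.24 to 6.62 also lay above control ratios of 1.79 to 3.06, without overlap. A ratio within a library does not depend on the scaling of libraries, and it does not say which of the genes differed.

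**Figure D4:**
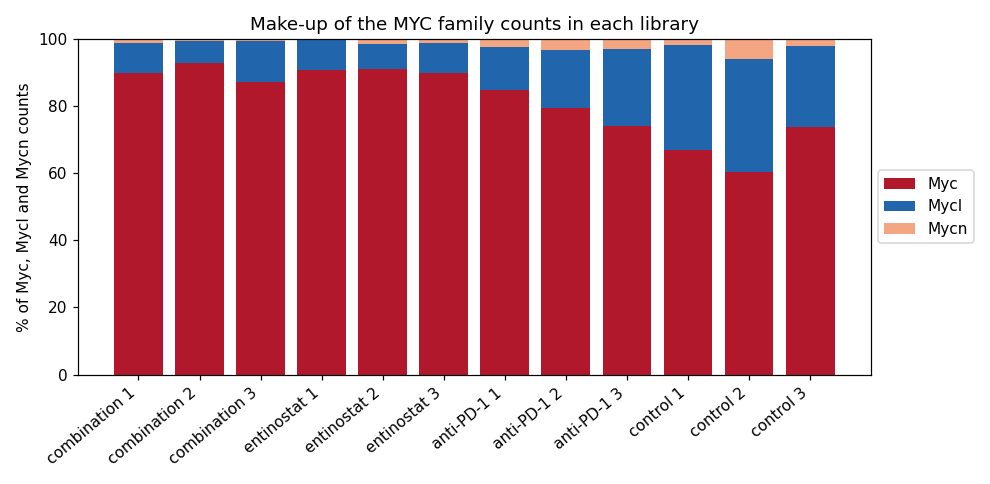
Share of Myc, Mycl and Mycn in their summed counts, in percent, with a bar per library ordered from combination to control. Myc holds 87.1% to 92.9% of the counts in the 6 libraries with entinostat and 60.4% to 84.8% in the 6 without.

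Max, the obligate partner of MYC, had 46.6, 51.1 and 44.1 CPM with the combination and 55.6, 51.1 and 48.8 CPM with entinostat. It had 37.7, 38.9 and 56.4 CPM with anti-PD-1 and 57.4, 42.3 and 42.3 CPM in control. The groups overlapped, and the entinostat main effect of 0.11 had a 95% interval of −0.20 to 0.42. Mxi1, a repressor also named MXD2, overlapped in every comparison, with 71.6 to 95.7 CPM in the combination group, 73.4 to 97.8 CPM in the entinostat group, 68.3 to 85.9 CPM in the anti-PD-1 group and 73.4 to 97.8 CPM in the control group. Its entinostat main effect was 0.01, with an interval of −0.28 to 0.31, so a 2-fold change lay outside the interval for both genes.

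Mxd3, the MXD protein found in dividing cells, had 30.8, 59.5 and 58.2 CPM with the combination, 48.2, 29.7 and 33.3 CPM with entinostat, 46.6, 51.9 and 63.5 CPM with anti-PD-1 and 97.2, 52.7 and 55.9 CPM in control. All 3 entinostat libraries lay below all 3 control libraries, while the combination libraries overlapped control. Against control, entinostat gave −0.89 on the log2 scale (SE 0.32) and did not pass (edgeR adjusted p = 0.117). Mxd4, a repressor of differentiated cells, overlapped in every comparison. Its means were 15.1 ± 2.64 CPM with the combination, 13.6 ± 2.13 CPM with entinostat, 16.1 ± 3.64 CPM with anti-PD-1 and 14.7 ± 5.93 CPM in control (SD, n = 3 each).

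Mnt, the widely expressed antagonist of MYC, had 20.5, 27.0 and 27.7 CPM with the combination, 24.4, 24.2 and 21.5 CPM with entinostat, 20.4, 24.9 and 21.2 CPM with anti-PD-1 and 13.97, 13.1 and 22.1 CPM in control. Control libraries 1 and 2 lay below all 9 treated libraries, and control library 3 lay among them. Its log2 fold change with the combination against control was 0.61 (SE 0.24, edgeR adjusted p = 0.109), and without control library 3 it passed at 0.88 (edgeR adjusted p = 0.0343). Mga, the giant scaffold of the Polycomb complex, had 274, 241 and 358 CPM with the combination, 247, 278 and 421 CPM with entinostat, 232, 290 and 256 CPM with anti-PD-1 and 192, 224 and 262 CPM in control. The groups overlapped, and the entinostat main effect of 0.32 had a 95% interval of −0.04 to 0.68 (edgeR adjusted p = 0.218).

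In the single comparisons the counts were as follows. With the combination against control, 2 of 10 network genes rose and none fell, against 11.7% of all genes called in either direction, 3.88% higher and 7.78% lower. For 2 of 10, Myc and Mlxipl, the libraries lay above control without overlap, and for 0 of 10 below, against 15.2% and 16.7% of all genes. With entinostat alone, 1 of 10 rose and none fell, against 5.27% in either direction, 1.3% higher and 3.98% lower. The libraries of 2 genes lay above and of 2 below control without overlap, against 13.1% and 15.7% of all genes. The medians of the 10 were 0.02 for the combination and 0.05 for entinostat, beside 0.05 and 0.00 over all genes.

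With anti-PD-1 alone against control, 0 of the 10 network genes passed in edgeR, against 0.00574% of all genes called, which is 1 gene. At an unadjusted p under 0.05 this was 0 of 10, beside 15.4% of all genes, and DESeq2 called 0 of 10, beside 4.04% of all genes. The median log2 fold change of the 10 was 0.17, beside −0.00 over all genes. Mlxipl had the smallest adjusted p, 0.375 in edgeR, with a log2 fold change of 2.31 and a 95% interval of −0.23 to 4.85, and the fold change was 1.04 without anti-PD-1 library 2 and 2.98 without control library 2. In the other 4 comparisons edgeR called 0 of the 10 and 0% of all genes, and DESeq2 called 0 of the 10. DESeq2 called 2.43% of all genes for the combination against anti-PD-1, 0.00574% for the combination against entinostat, 0.591% in the anti-PD-1 main effect and 0.344% in the interaction. At an unadjusted p under 0.05, 2 of 10 genes counted for the combination against anti-PD-1, beside 12.4% of all genes, and 0 of 10 against entinostat, beside 1.55%. In the anti-PD-1 main effect this was 1 of 10, beside 10.8%, and in the interaction 0 of 10, beside 6.04%.

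Levels of different genes can be compared only per transcript length, for which exon lengths of GENCODE vM21 were used, an annotation of another build than the one the counts were made on, so these levels are approximate. By the median CPM per kb of exon over the 12 libraries, Myc stood highest at 59.3. It was followed by Mxd3 at 22.1, Mga at 16.9, Max at 13.2, Mxi1 at 12.0, Mycl at 6.47, Mnt at 4.71, Mxd4 at 1.78, Mycn at 0.91 and Mlxipl at 0.73. The ranges over libraries overlapped for every pair of neighbours in this order except Mnt and Mxd4. Mxd3 stood above Myc in control libraries 1 and 2, at 41.0 and 22.3 CPM per kb, against 33.8 and 18.6 for Myc. The place of Mlxipl differed between groups, at rank 6 of 10 by its mean with the combination, 8 with entinostat and 10 with anti-PD-1 and in control. It averaged 5.46 ± 2.63 CPM per kb with the combination and 1.91 ± 1.15 with entinostat, against 0.39 ± 0.42 with anti-PD-1 and 0.08 ± 0.06 in control (SD, n = 3 each). In the combination group this was close to its paralog Mlxip, also named MondoA, at 5.98 ± 0.32 CPM per kb, whereas in control Mlxip stood at 3.40 ± 1.00.

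Mlxip and Mlx complete the MLX branch. Mlxip, a nutrient sensor like MLXIPL, had 51.3, 46.7 and 51.3 CPM with the combination, 47.1, 53.1 and 47.7 CPM with entinostat, 38.6, 42.5 and 25.6 CPM with anti-PD-1 and 23.8, 23.3 and 37.9 CPM in control. All 6 libraries with entinostat lay above all 6 without it, as did those of 2.01% of all genes, while for 2.32% they lay below. Mlxip rose in the entinostat main effect (log2 fold change 0.64, SE 0.17, edgeR adjusted p = 0.0351) and with the combination against control (0.81, SE 0.24, edgeR adjusted p = 0.0481). The main effect was called in 3 of 12 fits that left out a library. Mlx, the shared partner of both, had 21.2, 37.4 and 22.1 CPM with the combination, 32.6, 27.5 and 21.3 CPM with entinostat, 33.8, 20.2 and 32.9 CPM with anti-PD-1 and 56.2, 39.1 and 44.8 CPM in control. Its combination, entinostat and anti-PD-1 libraries all lay below control without overlap. This held for 16.7% of all genes with the combination and for 15.7% with entinostat, and the share with anti-PD-1 is not given here. Mlx did not pass with the combination or entinostat against control (edgeR adjusted p = 0.0912 and 0.128). Mxd1, an MXD repressor, did not pass in any comparison with control, and Mycs was not analysed here.

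Targets of the MLX branch were a list of 10 genes of glycolysis and fat synthesis. In the entinostat main effect 0 of 10 passed in edgeR, with a median log2 fold change of 0.22 beside 0.02 over all genes. The most expressed were Fasn, the fatty acid synthase, and Acaca, which makes its malonyl-CoA substrate, with log2 fold changes of 0.23 and 0.13 (edgeR adjusted p = 0.467 and 0.689). Fasn had 382, 504 and 382 CPM with the combination, 470, 404 and 366 CPM with entinostat, 400, 349 and 354 CPM with anti-PD-1 and 534, 229 and 278 CPM in control, and the groups overlapped. Txnip, the glucose-induced arrestin that is a direct ChREBP and MondoA target, had a log2 fold change of −0.05 (SE 0.29) and was chosen for this role after its values were seen. With the combination against control 1 of 10 rose, beside 3.88% of all genes. It was Slc2a4, the insulin-responsive glucose transporter, which rose by 2.23 (SE 0.64, edgeR adjusted p = 0.0453). It had 1.69, 2.74 and 7.06 CPM with the combination, 2.40, 2.11 and 0.98 CPM with entinostat, 0.64, 1.48 and 1.84 CPM with anti-PD-1 and 0.70, 0.81 and 0.94 CPM in control. The call held in 1 of 12 fits that left out a library.

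Growth genes known as MYC targets formed a list of 22. In the entinostat main effect 1 rose and 3 fell, beside 3.87% higher and 6.74% lower of all genes. The median log2 fold change was −0.26, and −0.137 without control library 1. The lower count was 1 without combination library 1 and 2 to 4 when any other library was left out. Without combination library 1, 206 genes rose and 394 fell in all, against 674 and 1175 with all libraries. Cdk4, the cyclin D kinase, fell by 0.91 (SE 0.15, edgeR adjusted p = 0.00811). It had 256, 267 and 164 CPM with the combination, 238, 257 and 201 CPM with entinostat and 232, 287 and 296 CPM with anti-PD-1, against 763, 622 and 696 CPM in control, so all 9 treated libraries, the anti-PD-1 ones included, lay below control. Libraries lay below control without overlap in 16.7% of all genes with the combination and in 15.7% with entinostat. The share with anti-PD-1 is not given here. Nme1, a nucleoside diphosphate kinase with near-identical copies that could share its reads, fell by 0.95 (SE 0.20, edgeR adjusted p = 0.0189).

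Ccnd2, the cyclin D2 gene, was the member of the growth list that rose, by 2.40 (SE 0.46, edgeR adjusted p = 0.0136). It had 93.0, 31.6 and 33.3 CPM with the combination and 62.1, 69.9 and 30.2 CPM with entinostat, against 9.86, 9.70 and 3.02 CPM with anti-PD-1 and 26.05, 6.95 and 7.82 CPM in control. All 6 libraries with entinostat lay above all 6 without it, and the call held in 12 of 12 fits that left out a library. With the combination against control 0 of 22 rose and 7 fell, beside 3.88% higher and 7.78% lower of all genes. The 7 became 3 without control library 1 and 1 without combination library 1 or 3. Over all genes, 677 rose and 1356 fell with all libraries. These became 93 and 213 without combination library 1, and 132 and 251 without combination library 3. With entinostat alone 0 rose and 3 fell, beside 1.3% and 3.98% of all genes, and the 3 became 0 without entinostat library 3 and 1 without control library 1, entinostat library 2 or combination library 1. Here too the calls over all genes dropped, from 226 higher and 693 lower. They became 1 and 1 without entinostat library 3, and 6 and 36 without entinostat library 2. The medians were −0.70 for the combination and −0.47 for entinostat, against the same control libraries, beside 0.05 and 0.00 over all genes. Without control library 1 they were −0.348 and −0.099. With anti-PD-1, 0 of 22 passed in edgeR, which called 1 gene in all. The median of the list was −0.68 there, beside −0.00 over all genes, and 1 of 22 had a positive value. In the anti-PD-1 main effect the median was −0.44, beside −0.26 in that of entinostat.

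**Figure D5:**
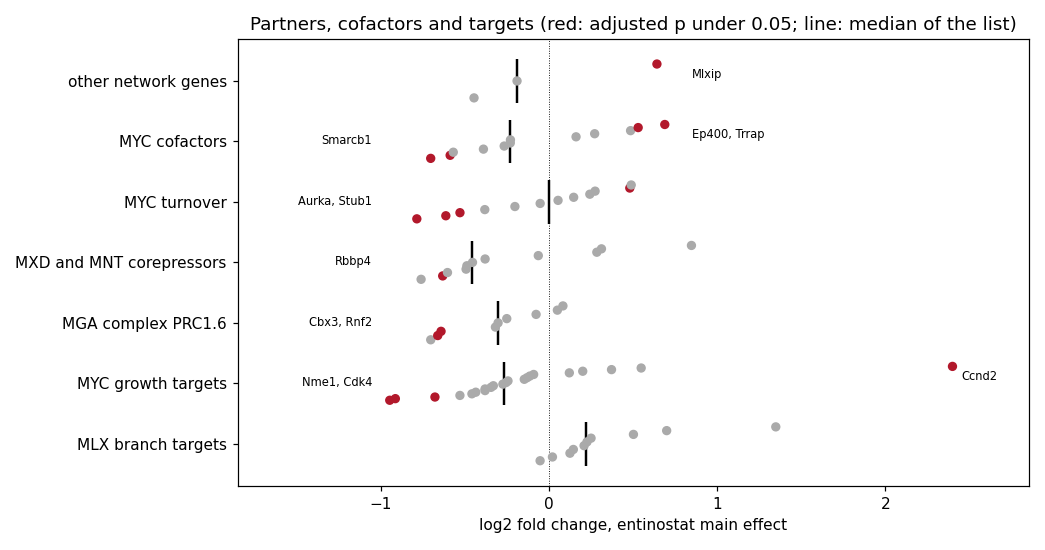
Log2 fold change in the entinostat main effect for each tested member of 7 lists around the network, with members past an adjusted p of 0.05 in red, those the text describes named, and a black line at the median of the list. The medians lie at −0.26 for the growth targets, −0.45 for the corepressors and 0.22 for the MLX targets, and Ccnd2 lies farthest right at 2.40.

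Cofactors that MYC recruits split in both directions in the entinostat main effect, with 2 of 12 higher and 2 lower, beside 3.87% and 6.74% of all genes. The median was −0.23, and −0.122 without control library 1. With a library left out, 0 to 2 were higher, 0 without entinostat library 2 or combination library 1 or 3, and 1 to 3 were lower. Smarcb1, a core SWI/SNF subunit that binds MYC, fell by 0.70 (SE 0.12, edgeR adjusted p = 0.0111). It had 41.0, 49.8 and 38.9 CPM with the combination, 39.5, 46.6 and 47.1 CPM with entinostat, 61.8, 57.8 and 63.5 CPM with anti-PD-1 and 98.0, 70.1 and 81.8 CPM in control. Trrap, the scaffold through which MYC recruits histone acetyltransferases, rose by 0.69 (SE 0.16, edgeR adjusted p = 0.0221), with 203, 166 and 218 CPM in the combination libraries and 196, 197 and 181 CPM with entinostat, against 148, 153 and 82.3 CPM with anti-PD-1 and 113, 110 and 115 CPM in control. For both genes the 6 libraries with entinostat stood apart from the 6 without. Ep400, its partner in the TIP60 complex, rose by 0.53 (SE 0.14, edgeR adjusted p = 0.0382), a call that held in 4 of 12 fits that left out a library, against 9 of 12 for Trrap and 12 of 12 for Smarcb1. Trrap, Ep400 and Mga have long transcripts, and genes in the highest quartile of exon length, 6434 bases and above, had a median of 0.125 in this comparison, beside −0.028 in the lowest and −0.077 in the next, and the part of length was not tested. With the combination against control 2 cofactors rose and 4 fell, beside 3.88% and 7.78% of all genes, and the 4 became 1 without combination library 1 and 0 without combination library 3, while with any library left out 0 to 2 were higher. With entinostat alone 1 fell, beside 3.98% of all genes, and 0 did without control library 1 or entinostat library 2 or 3. Each left-out fit named for the cofactors also called fewer genes in all than the fit of all 12 libraries.

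Regulators of MYC protein turnover counted 1 higher and 3 lower of 12 in the main effect, beside 3.87% and 6.74% of all genes, with a median of 0.00. With a library left out, 0 or 1 were higher and 2 or 3 lower. Aurka, the kinase that stabilises MYC family proteins, fell by 0.78 (SE 0.17, edgeR adjusted p = 0.0175), and the ubiquitin ligase Stub1 fell by 0.53 (SE 0.13, edgeR adjusted p = 0.0293). The call held in 12 of 12 fits that left out a library for Aurka and in 5 of 12 for Stub1. Aurka had 48.7, 52.4 and 37.7 CPM with the combination, 62.6, 51.5 and 46.6 CPM with entinostat, 59.5, 63.9 and 77.8 CPM with anti-PD-1 and 148, 94.3 and 86.8 CPM in control, with all treated libraries below control. Such a gap below control was found in 16.7% of all genes with the combination and in 15.7% with entinostat. Aurka and Stub1 also fell with the combination against control, in 10 and 11 of 12 such fits, and with entinostat alone against control, in 7 and 8 of 12. The T58A change lies in the phosphorylation site that directs MYC to the ligase FBXW7, so the mutant protein is known to escape that route.

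Corepressors used by MXD proteins and MNT had 0 of 11 higher and 1 lower in the main effect, beside 3.87% and 6.74% of all genes, with a median of −0.45. Rbbp4, the histone chaperone of SIN3 complexes, fell by 0.63 (SE 0.17, edgeR adjusted p = 0.038), a call that held in 4 of 12 fits that left out a library. Hdac2, a catalytic subunit and a target of entinostat, had 105, 120 and 107 CPM with the combination, 120, 127 and 130 CPM with entinostat, 131, 136 and 137 CPM with anti-PD-1 and 278, 142 and 191 CPM in control. It fell with the combination against control by 0.88 (SE 0.21, edgeR adjusted p = 0.0266), and did not pass with upper quartile factors (edgeR adjusted p = 0.0521). In that comparison 4 of 11 fell, beside 7.78% of all genes, and 0 did without control library 1 or combination library 1 or 3, while upper quartile factors left 1 lower and 1 higher. Those left-out fits also called fewer genes in all. Around Mga, 2 of 9 members of its Polycomb complex fell in the main effect, beside 6.74% of all genes, with a median of −0.30. With a library left out the count was 0 to 3, and 0 without anti-PD-1 library 1 or entinostat library 3, fits that called fewer genes in all. Those that fell were Cbx3, a reader of methylated histone H3, by 0.66 (SE 0.15, edgeR adjusted p = 0.0211), and Rnf2, its ubiquitin ligase, by 0.64 (SE 0.17, edgeR adjusted p = 0.0367). The call held in 10 of 12 fits that left out a library for Cbx3 and in 2 of 12 for Rnf2. Both also fell with the combination against control, in 12 and 9 of 12 such fits, and with entinostat alone against control, in 7 and 8 of 12. Cbx3 has known processed pseudogenes, which leaves its counts uncertain. With anti-PD-1 against control 0 members of any of these lists passed in edgeR, which called 1 gene in all. The medians there were −0.33 for the cofactors, −0.09 for turnover, −0.56 for the corepressors and −0.30 for the Polycomb complex.

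With upper quartile factors, which shifted the median of all genes to 0.15 in the main effect, the cofactors counted 2 higher and 1 lower, turnover 1 and 2, corepressors 0 and 0, the Polycomb complex 0 and 1, and growth targets 1 and 2. With the alveolar score as a covariate the growth targets counted 1 lower and the other lists had 0 called, in a fit that called 325 genes in all.

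Genes with the profile closest to Myc over the 12 libraries were ranked by the root mean square difference of log2 CPM, each centred on its own mean, among 13114 genes. They were Pprc1 at 0.26, a coactivator related to PGC-1, Lrp5 at 0.29, a WNT coreceptor, Slc4a2 and Atf7 at 0.31 and Zranb3 at 0.31, where Myc itself had an SD of 0.72. Pprc1 had 92.7, 81.4 and 92.5 CPM with the combination, 84.9, 94.3 and 96.7 CPM with entinostat, 57.8, 74.7 and 39.98 CPM with anti-PD-1 and 38.8, 35.9 and 57.2 CPM in control. For Mlxipl the closest were Mapk13, a p38 kinase, at 1.53, then Hmcn1, Bmp8b, Dpyd and Trpv4 at 1.73 to 1.85, with an SD of 2.96 for Mlxipl.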

How the data were processed

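RNA of dissected flash-frozen tumour was sequenced after poly(A) selection, per the labels' protocols. The authors deposited 1 table of raw read counts by gene. Per the submitters' processing notes, STAR 2.5.4a, Trimmomatic 0.36, Trim Galore, R 3.5.1 and DESeq2 1.22.2 were in use and the build was mm9. Annotation, strand setting and multi-mapped reads: not given in the sources used here. Among counts of 1 to 20, 65.3% to 77.2% were even, so both mates of a pair may have been counted, and halved counts were tried. Structural RNAs took 7.84% to 13.2% of the counts in control, 15.2% to 19.3% with entinostat and 17.7% to 18.0% with the combination. With anti-PD-1 they took 20.5% to 36.4%, highest in library 2. Total counts were 40534618 or more in control libraries and 40469275 or fewer in treated libraries. Both measures thus differed along with treatment in each comparison with control, and their part was not tested. Groups follow the titles. For the combination, the treatment label names just the antibody.

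Counts were fitted in R 4.3.3 with edgeR 4.0.16 (filterByExpr with a minimum count of 10, TMM factors, a mean per group over all 12 libraries, robust quasi-likelihood F test), with limma 3.58.1 underneath. P-values were adjusted by Benjamini-Hochberg over all genes tested within each of 8 comparisons, at a threshold of 0.05. SE is the log2 fold change over the root of F. Intervals are 95% t intervals and are not adjusted. The script was tested on simulated data. Alternatives were RLE and upper quartile factors, no filter, halved counts, a replicate block, the alveolar score as a covariate, no structural RNA, only the groups compared, DESeq2 1.42.0, and each library left out. CPM and sums of CPM are descriptions, and counts limit the precision of low genes.

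The members and lists were chosen with earlier results of these data known. All 10 members are named. Of each other list the 3 called members with the lowest adjusted p at most are taken, or up to 2 with the highest expression where none passes, and a subset of these is given; 1 such gene is not reported here. Genes most like Myc and Mlxipl are the 5 closest, where mean log2 CPM was 1 or more. Liver and fat markers, Pvt1 and Txnip were chosen after values were seen. Promoter sequences are from RefSeq.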

Additional observations from a re-analysis of the deposited data

How the results depend on the processing

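The entinostat main effect called Myc and Mlxipl in each of the 8 other settings and in each of the 12 fits that left out a library, with log2 fold changes of 1.02 to 1.30 for Myc and 3.91 to 4.83 for Mlxipl over those 12 fits. The count for entinostat against control, 1 of 10, became 2 with DESeq2 and with halved counts, and was between 0 and 2 when a library was left out. It became 0 with the alveolar score as a covariate and 0 with only the libraries of the groups compared. Those fits called no gene of 17426 and no gene of 16600. For the combination against control, 2 of 10, the count became 1 with the alveolar score, a fit that called 136 genes higher and 274 lower. The count became 0 with only the groups compared, a fit that called no gene of 16670. It was between 0 and 3 when a library was left out. Myc against control lost its call without control library 1 or 2 in both comparisons, without entinostat library 2 or 3 for entinostat, and without combination library 1 or 3 for the combination. Mlxipl for the combination lost it without control library 1 or combination library 1 or 3, with adjusted p of 0.052 to 0.0593 in edgeR. Each of these left-out fits also called fewer genes in all. Mlxipl for entinostat alone gained it with DESeq2, halved counts or without anti-PD-1 library 1. Of 1650 single values under alternatives, 18 lost and 4 gained the call, and 0 called values reversed. Most of the 1650 belong to results that were not called and so had no call to lose. The losses were in Myc against control, called in 8 of 12 left-out fits and 6 of 9 other settings in each comparison. The rest were in Mlxipl for the combination against control, called in 9 of 12 and 8 of 9. The causes were not tested.

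The labels do not state that the replicate numbers pair libraries, and the values do not settle it. Deviations of same-numbered libraries correlated between −0.29 and 0.23, over 0.1 in 8 of 18 pairs. Those of different-numbered libraries correlated between −0.315 and 0.39, over 0.1 in 11 of 36 pairs. For 1 of 12 libraries the closest library of another group carried the same number. With the numbers as a replicate block the counts were 0 of 10 for entinostat and 1 of 10 for the combination against control. The block left 69 genes higher and 252 lower for entinostat, beside 226 and 693 without it. For the combination it left 325 and 762, beside 677 and 1356 without it. Over all genes, the main effect called 674 higher and 1175 lower, against 1046 and 632 with upper quartile factors, and 1441 and 1981 with DESeq2. For the combination against control these were 677 and 1356, against 1100 and 611 and 1486 and 2105, and for entinostat 226 and 693, against 325 and 236 and 867 and 1529. Anti-PD-1 against control called 0 higher and 1 lower in edgeR and 215 and 489 in DESeq2. Depth limits Mlxipl most, with 6 to 36 counts in control.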

Other observations

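Pvt1, a long noncoding RNA gene beside endogenous Myc, was looked at after the values of Myc were seen. It had 69.2, 48.7 and 56.7 CPM in the combination libraries, 83.2, 83.8 and 121 CPM with entinostat, 167, 80.0 and 144 CPM with anti-PD-1, and 76.1, 75.0 and 41.9 CPM in control. Its combination libraries lay below all entinostat and all anti-PD-1 libraries, while for Myc each combination library lay above 2 of the 3 anti-PD-1 libraries. The entinostat main effect on Pvt1 was −0.29 on the log2 scale (SE 0.22, edgeR adjusted p = 0.392), beside 1.14 for Myc. It averages effects of opposite sign, 0.58 for entinostat against control and −1.16 for the combination against anti-PD-1 (edgeR adjusted p = 0.271 and 0.212). Anti-PD-1 against control gave 1.02 (edgeR adjusted p = 0.171). Entinostat and anti-PD-1 libraries lay above control without overlap, as did those of 13.1% of all genes for entinostat. The shares for anti-PD-1 above control and for the combination below either agent are not given here. The interaction of the agents was −1.74 (SE 0.44) with an unadjusted p of 0.00192 and an edgeR adjusted p of 0.631, so it failed the correction.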
